A study of Urocitellus parryii with 3 samples.

Results

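The miR-26 family was represented in the liver of the arctic ground squirrel by 2 mature miRNAs, miR-26a-5p and miR-26b-5p. Its members were chosen by sequence, as all distinct reads that share their first 18 bases with either miRNA, each read being counted once per stage. They were 2 of 763 features, a feature being a group of reads with the same first 18 bases and at least 100 reads in all. The group of miR-26a-5p held 2330 distinct reads and 38586 reads in all, and that of miR-26b-5p held 965 distinct reads and 28547 reads in all.

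A miRNA guides the Argonaute protein to messenger RNAs that pair with its seed, bases 2 to 8, and lowers their translation and stability. In mammals the miR-26 genes lie within introns of the CTDSP phosphatase genes, and in liver miR-26a is known for restraining cell growth and for effects on glucose and lipid metabolism. After a miRNA has been cut from its precursor, terminal nucleotidyltransferases can add bases to its 3′ end that the gene does not encode. These additions are mostly uridine or adenosine, and in cultured human cells the uridyl transferase ZCCHC11 is known to add U to miR-26 and so to weaken its repression of target mRNA.

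The arctic ground squirrel (Urocitellus parryii) is a rodent that spends the winter in torpor bouts broken by short arousals. Small RNA of 18 to 30 nt was sequenced from liver at 3 stages, and the labels name no genetic change. The post-reproduction library was made from 6 summer animals that were not hibernating and were kept at 16 h light and 8 h dark, and these animals were anesthetized with isoflurane before death. The early arousal and the late torpor libraries were made from 4 animals each, kept at 4 h light and 20 h dark with implanted temperature transmitters, after 4 or more torpor bouts. The labels give no anesthetic for them, and place the killing of torpid animals on day 4 of a bout without a time for the aroused ones. Against post-reproduction, therefore, the effects of hibernation, light cycle, implant and anesthesia cannot be told apart, and the labels give no age or sex. Each stage is 1 library made from mixed RNA of its animals, so the 14 animals give no spread and no test between stages was possible. Every ratio here compares 2 libraries. The intervals are 95% intervals, and since PCR reads carry no molecular identifiers they cover counting error only. They are exact for levels, shares and ratios, and symmetric about the value for differences in percentage points. For a ratio of shares the method treats tailed inserts as counts per total, which makes the interval somewhat wide. It can therefore include 1 where the interval of the difference lies on one side only. Where 3 values follow each other without a label, they stand for post-reproduction, early arousal and late torpor.

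The 3 libraries held 5611673 to 5860476 placed reads. The most abundant feature lay at the position of miR-122-5p, which defines hepatocytes among miRNAs, and took 72.8% to 76.6% of placed reads, so the defining miRNA of the labelled tissue was abundant in every library. The post-reproduction library had more unread bases than the others. An unread base was present in 5.76% of its reads, against 0.407% in early arousal and 1.04% in late torpor, and in 5.39% of its miR-26a-5p reads, against 0.208% and 1.05%.

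The mature sequences below are shown because the members share all of the seed and are told apart by 2 bases. They are the most abundant inserts of each group, read 5′ to 3′ from the deposited reads with T standing for U, and the capitals mark the seed.
miR-26a-5p: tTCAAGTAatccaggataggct
miR-26b-5p: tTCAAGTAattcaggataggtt
Counted from 1 at the 5′ end, miR-26b-5p differs from miR-26a-5p by C11T and C21T. The first of these lies within the 18 bases that define a group and the second near the 3′ end, and 90.1% of the reads of miR-26a-5p and 92.4% of those of miR-26b-5p had their own miRNA's base there. The miR-26a-5p form lay on the minus strand of GeneScaffold_4259, where its 22 bases start at 279940 and run to lower positions, and the miR-26b-5p form on the plus strand of scaffold_72782, from 220 to 241. All reads of both groups were placed at a single position. The genome build of these scaffolds is not given in the sources used here, and no gene annotation of them was used here.

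The longest placed reads show which bases follow each miRNA at its placed locus, and these decide what counts as a tail. Whether another gene gives the same mature sequence with other bases after it was not tested. Capitals mark the bases after position 22.
miR-26a-5p locus: ttcaagtaatccaggataggctGTTTC
miR-26b-5p locus: ttcaagtaattcaggataggttGTGT
Both loci have G at base 23, so an insert with T or A at base 23 carries a base that the locus does not encode. Both have T at base 24, so the second base of a tail UU or AU matches the locus. In a single read such a tail cannot be told apart from a reading error at base 23 followed by an encoded T. At the miR-26a-5p locus bases 25 and 26 are T as well, so this limit holds for its tails of 3 and 4 U too, while base 25 of the miR-26b-5p locus is G. The last encoded base was base 23 in 0.168% to 0.248% of miR-26a-5p inserts and base 24 in 0.229% to 0.286%. For miR-26b-5p these shares were 0.251% to 0.317% and 0.00986% to 0.0545%. Inserts with UU after base 22 made up 14.4% to 17.4% of miR-26a-5p and 1.03% to 2.12% of miR-26b-5p. How many of them are reading errors was not tested. A U added to an insert trimmed to 21 bases cannot be told apart from the encoded T at base 22.

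Both members were slightly more abundant in the late torpor library than in post-reproduction, and the place of early arousal depended on the scaling. In bulk liver, fewer cells of a type and less of a miRNA per cell cannot be told apart. The miR-26a-5p group had 11726, 13437 and 13423 reads. Scaled by trimmed mean of M-values (TMM) factors over all features, its level was 2127 CPM (interval 2088 to 2166), 2066 CPM (2031 to 2101) and 2607 CPM (2563 to 2651). Late torpor was thus the highest, and post-reproduction and early arousal lay close together with intervals that overlap. Scaled to the total of placed reads alone (RPM) the same counts gave 2089, 2394 and 2290, and early arousal was then the highest. The miRNA ranked 15th, 16th and 12th among all features by read count.

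The miR-26b-5p group had 8677, 10466 and 9404 reads. Its TMM-scaled level was 1574 CPM (1541 to 1607), 1609 CPM (1579 to 1641) and 1826 CPM (1789 to 1863), so late torpor was again the highest and the intervals of the other two libraries overlap. In RPM it was 1545, 1865 and 1605. It ranked 21st, 21st and 18th among features.

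**Figure D1:**
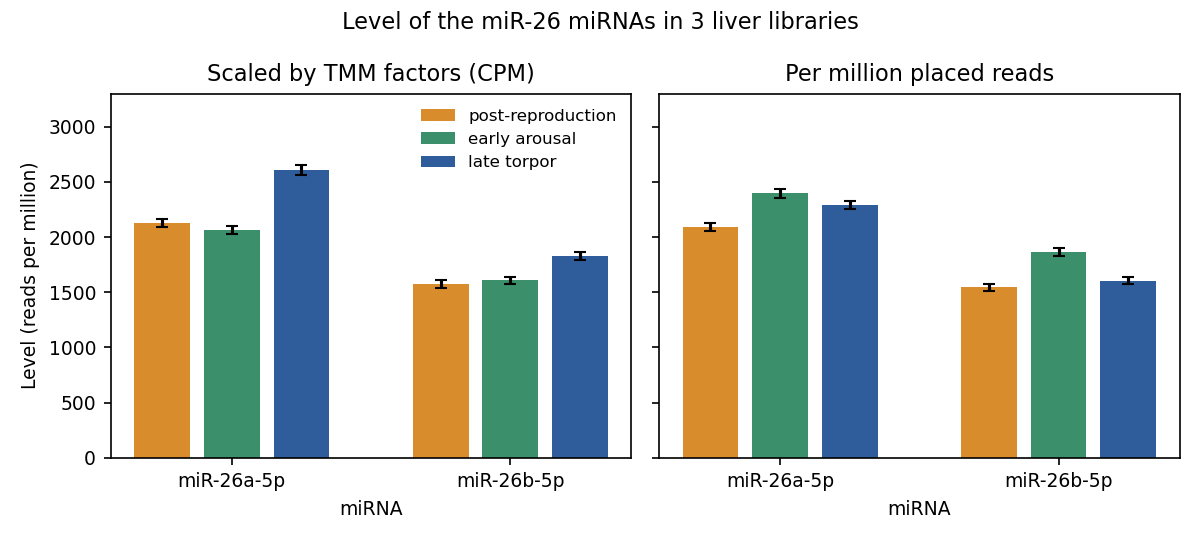
Level of miR-26a-5p and miR-26b-5p in the 3 libraries, scaled by TMM factors (left, CPM) and to placed reads (right, RPM); bars are 1 library each and error bars are exact Poisson 95% intervals for counting error. Late torpor stands above post-reproduction in all 4 pairs of bars, while early arousal is at 2066 on the left and 2394 on the right for miR-26a-5p.

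In late torpor against post-reproduction the TMM-scaled ratio was 1.23 (1.2 to 1.26) for miR-26a-5p and 1.16 (1.13 to 1.19) for miR-26b-5p. In RPM these ratios were 1.10 (1.07 to 1.12) and 1.04 (1.01 to 1.07). Over all 4 scalings tried, the ratio ranged from 1.10 to 1.3 for miR-26a-5p and from 1.04 to 1.23 for miR-26b-5p, and stayed above 1. In early arousal against post-reproduction the ratio was 0.972 (0.948 to 0.996) and 1.02 (0.994 to 1.05) with TMM factors, and 1.15 (1.12 to 1.18) and 1.21 (1.17 to 1.24) in RPM. In early arousal against late torpor it was 0.793 (0.774 to 0.812) and 0.881 (0.857 to 0.906) with TMM factors, and 1.05 (1.02 to 1.07) and 1.16 (1.13 to 1.2) in RPM, so the direction turned with the scaling. TMM factors moved every feature by 0.16, -0.24 and -0.40 on the log2 scale in these 3 comparisons, relative to placed reads. The comparisons share libraries and are not independent of each other.

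Neither member was 1.5-fold different in any comparison or scaling. Among features with at least 100 reads over the libraries compared, 49.2% were at least 1.5-fold different in level in late torpor against post-reproduction, 43.6% in early arousal against post-reproduction and 36.9% in early arousal against late torpor. Among the 63 miRNA-like features, those with at least 1000 reads in each library and a most frequent insert length of 20 to 24 nt, the shares were 19.0%, 23.8% and 17.5%. The median log2 ratio of these 63 features was -0.07, -0.13 and -0.12 in the same order of comparisons. The log2 ratios of miR-26a-5p were 0.29, -0.04 and -0.34, and those of miR-26b-5p 0.21, 0.03 and -0.18.

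The members kept a similar proportion to each other. For each read of miR-26b-5p there were 1.35 (1.31 to 1.39), 1.28 (1.25 to 1.32) and 1.43 (1.39 to 1.47) reads of miR-26a-5p. This proportion does not depend on the scaling, and it was highest in late torpor and lowest in early arousal.

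The libraries also differed at the 3′ end. U tails, runs of U that follow the last base matching the locus, were more frequent on both members in the hibernation-season libraries. On miR-26b-5p the share was 17.2% of inserts in post-reproduction against 27.7% or more in the other libraries, and on miR-26a-5p 28.8% against 33.8% or more. The most abundant tailed inserts are shown here to make the tails visible, with the tail in capitals.
miR-26a-5p with 1 U: ttcaagtaatccaggataggctT
miR-26a-5p with 2 U: ttcaagtaatccaggataggctTT
miR-26a-5p with 3 U: ttcaagtaatccaggataggctTTT
miR-26a-5p with 1 A: ttcaagtaatccaggataggctA
miR-26a-5p with A and U: ttcaagtaatccaggataggctAT
miR-26b-5p with 1 U: ttcaagtaattcaggataggttT
miR-26b-5p with 2 U: ttcaagtaattcaggataggttTT
miR-26b-5p with 1 A: ttcaagtaattcaggataggttA

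In post-reproduction 1411 of 8192 miR-26b-5p inserts had a U tail, or 17.2% (16.4 to 18.1). In early arousal 2914 of 10143 had one, or 28.7% (27.9 to 29.6), and in late torpor 2542 of 9172, or 27.7% (26.8 to 28.6). Post-reproduction was thus the low library, and the other two lay close together. The share was 1.61 times as large in late torpor as in post-reproduction (1.51 to 1.72), a difference of 10.5 percentage points (9.26 to 11.7). In early arousal it was 1.67 times that of post-reproduction (1.56 to 1.78), or 11.5 points higher (10.3 to 12.7). Early arousal and late torpor differed by a ratio of 1.04 (0.983 to 1.09), which is within counting error. Among inserts that keep the whole mature sequence this ratio was 1.07 (1.01 to 1.12), with an interval above 1.

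On miR-26a-5p 3019 of 10479 inserts had a U tail in post-reproduction, or 28.8% (27.9 to 29.7). In early arousal 4253 of 12527 had one, or 34% (33.1 to 34.8), and in late torpor 4284 of 12670, or 33.8% (33.0 to 34.6). Post-reproduction was again the low library, as for miR-26b-5p, with a smaller step to the other libraries. The ratio to post-reproduction was 1.17 (1.12 to 1.23) in late torpor and 1.18 (1.12 to 1.24) in early arousal, and that of early arousal to late torpor was 1.0 (0.962 to 1.05). The intervals of the 2 members' ratios to post-reproduction do not overlap, so within counting error miR-26b-5p differed more. Tails made of C only were on 0.205% to 0.229% of miR-26a-5p inserts and 0.110% to 0.174% of miR-26b-5p inserts. These give only part of the reading error. A misread base before base 22 that encoded bases follow leaves a tail of mixed bases or of U, not of C only. G tails do not give even this part, since a G after base 22 reads as encoded at both loci.

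A tail can be read only where the adapter that follows it was found. No adapter was found in 1247, 910 and 753 reads of miR-26a-5p and in 485, 323 and 232 of miR-26b-5p. If none or all of these reads had a U tail, the share of miR-26b-5p would lie at 16.3% to 21.9%, 27.8% to 30.9% and 27% to 29.5%. The bounds of post-reproduction do not reach those of the other libraries. For miR-26a-5p the bounds were 25.7% to 36.4%, 31.7% to 38.4% and 31.9% to 37.5%, and these overlap. With reads that hold an unread base left out, the ratio of late torpor to post-reproduction was 1.17 for miR-26a-5p and 1.60 for miR-26b-5p, and that of early arousal 1.17 and 1.65.

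The 2 members carried U tails of different length. Of the U tails that follow base 22 of miR-26a-5p, 61.7% (59.9 to 63.5), 65.2% (63.7 to 66.7) and 66.6% (65.1 to 68.0) had 2 or more U. On miR-26b-5p these shares were 6.69% (5.42 to 8.14), 9.39% (8.34 to 10.5) and 8.71% (7.63 to 9.88). A single U was the usual tail of miR-26b-5p and a pair of U that of miR-26a-5p. Base 24 is T at both loci, but the loci differ from base 25 on.

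On miR-26a-5p the share of inserts with 1 U was nearly the same in the 3 libraries, at 10.7%, 11.2% and 11%. Among inserts with the adapter found, the difference lay in the longer tails. Tails of 2 U were on 15.0%, 17.6% and 17.8% of inserts, and tails of 3 or more U on 3.12%, 5.11% and 4.99%. The ratio of late torpor to post-reproduction was thus 1.03 (0.953 to 1.12) for 1 U, 1.19 (1.11 to 1.27) for 2 U and 1.60 (1.40 to 1.83) for 3 or more. Up to base 26, every U after the first in these tails matches the locus. In early arousal the ratios were 1.05 (0.972 to 1.14), 1.17 (1.10 to 1.25) and 1.64 (1.43 to 1.88).

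On miR-26b-5p all tail lengths were more frequent. The share with 1 U was 15.7%, 25.4% and 24.9%, the share with 2 U 1.04%, 2.16% and 2.01%, and the share with 3 or more U 0.50%, 1.16% and 0.774%. Against post-reproduction the ratio for 1 U was 1.59 (1.48 to 1.70) in late torpor and 1.62 (1.51 to 1.73) in early arousal. For 3 or more U it was 1.55 (1.04 to 2.33) and 2.32 (1.62 to 3.40), from 41, 118 and 71 inserts.

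**Figure D2:**
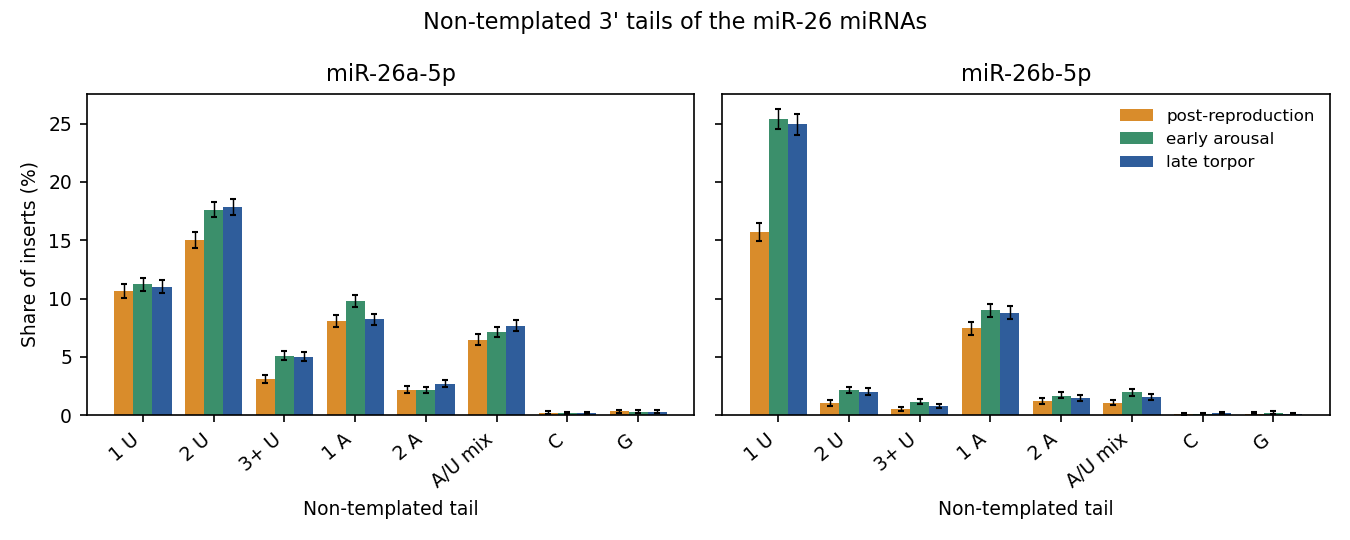
Share of inserts of miR-26a-5p (left) and miR-26b-5p (right) with each kind of non-templated 3′ tail, in percent, in the 3 libraries; error bars are exact binomial 95% intervals. On miR-26b-5p the 1 U bar goes from 15.7% in post-reproduction to 25.4% in early arousal and 24.9% in late torpor, while on miR-26a-5p the 2 U bar is the tallest and C tails are on 0.229% of inserts or fewer. A G after base 22 reads as encoded, so the G bars leave it out.

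On miR-26b-5p the A tails differed less from post-reproduction than the U tails, and on miR-26a-5p the ratios of both kinds were close to each other in early arousal. On miR-26a-5p A tails were on 10.4% (9.80 to 11), 12.1% (11.6 to 12.7) and 11.2% (10.7 to 11.8) of inserts. Early arousal was the highest, with a ratio to post-reproduction of 1.17 (1.08 to 1.26) and to late torpor of 1.08 (1.01 to 1.16). The ratio of late torpor to post-reproduction was 1.08 (0.998 to 1.17) and the difference 0.834 points (0.0328 to 1.64), at the edge of counting error. Among inserts that keep the whole mature sequence this ratio was 1.13 (1.03 to 1.24), and that of early arousal to late torpor was 1.08 (0.997 to 1.18), so the interval of the latter then includes 1. On miR-26b-5p A tails were on 8.64% of inserts (8.04 to 9.27), 10.7% (10.1 to 11.3) and 10.4% (9.78 to 11). Here both hibernation-season libraries lay above post-reproduction, with ratios of 1.24 (1.13 to 1.37) in early arousal and 1.2 (1.09 to 1.33) in late torpor. They differed from each other by a ratio of 1.03 (0.945 to 1.13).

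Tails of both A and U were more common on miR-26a-5p, at 6.48%, 7.14% and 7.68%, than on miR-26b-5p, at 1.06%, 1.95% and 1.54%. Most of those on miR-26a-5p were A followed by U, on 4.60%, 4.56% and 5.04% of inserts. Counting every kind of tail, 48.9%, 57.2% and 55.7% of miR-26a-5p inserts and 28.5%, 44.2% and 41.1% of miR-26b-5p inserts were counted as tailed. These shares include tails of other mixed bases, in which a misread base inside the insert cannot be told apart from a tail. Such tails were on 2.63%, 3.42% and 2.45% of miR-26a-5p inserts and 1.31%, 2.40% and 1.13% of miR-26b-5p inserts, highest in early arousal.

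The tails showed in the length of the inserts. Inserts of 22 nt made up 52.2%, 44.3% and 44.6% of miR-26a-5p. Those of 24 nt made up 22.5%, 24.9% and 26.6%, more than the 18.3%, 21.1% and 19.0% of 23 nt. For miR-26b-5p the share of 22 nt was 68.9%, 54.9% and 57.0%, and the share of 23 nt was 23%, 35.4% and 33.8%. Its share of 24 nt was 1.87% (1.59 to 2.18), 3.47% (3.12 to 3.85) and 3.58% (3.21 to 3.98), so it was also lowest in post-reproduction. Post-reproduction had the highest share of 22 nt for both members.

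**Figure D3:**
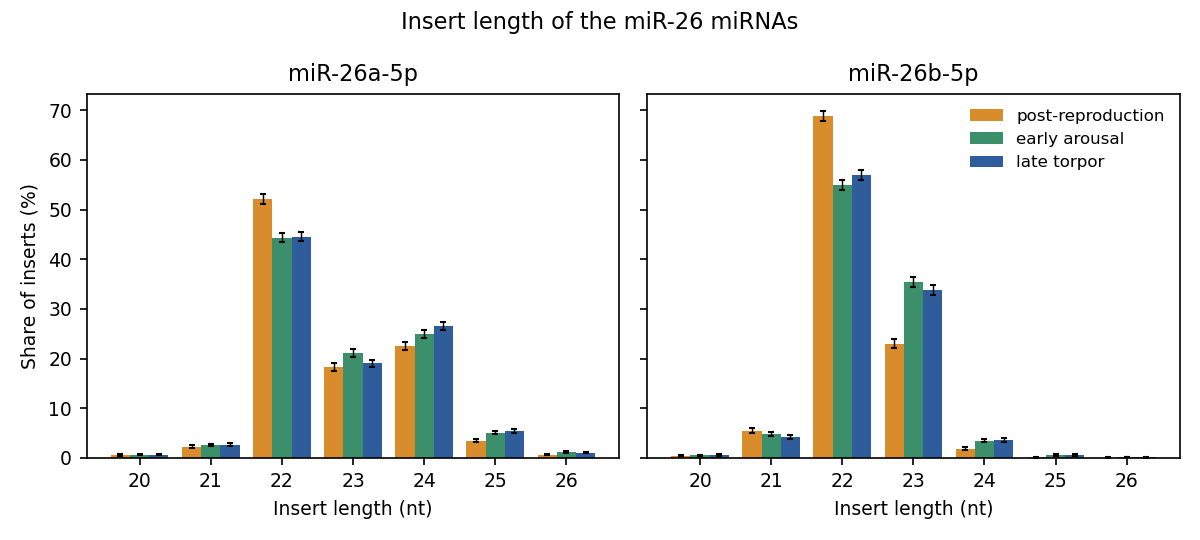
Insert length of miR-26a-5p (left) and miR-26b-5p (right) in nt against the share of inserts in percent, in the 3 libraries, with exact binomial 95% intervals. The 22 nt bar is tallest in post-reproduction for both members, at 52.2% and 68.9%, and the second peak lies at 24 nt for miR-26a-5p and at 23 nt for miR-26b-5p.

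By the longest match to the locus, the last encoded base was most often base 22. A match that ended at base 18 was rare but most frequent in early arousal. It was seen in 0.344%, 1.52% and 0.379% of miR-26a-5p inserts and in 0.330%, 1.32% and 0.251% of miR-26b-5p inserts. Only 0.0286%, 0.0399% and 0.0316% of miR-26a-5p inserts and 0.0244%, 0.0296% and 0.0654% of miR-26b-5p inserts were 18 nt long. Most of these matches were thus followed by further bases. Whether base 18 was the last encoded base or base 19 was misread was not tested. The last encoded base was base 22 in 89.8%, 86.9% and 89.4% of miR-26a-5p inserts and in 88.3%, 86.2% and 89.4% of miR-26b-5p inserts. Within these inserts alone, U tails were on 30.8%, 36.8% and 36.4% of miR-26a-5p and on 19.0%, 32.5% and 30.5% of miR-26b-5p. The difference in U tails was thus as large among inserts that kept the whole mature sequence. Inserts whose last encoded base was base 21 carried A tails often, on 45.0%, 45.5% and 40.9% for miR-26a-5p and 31.2%, 36.9% and 35.8% for miR-26b-5p. After base 22 A tails were on 8.27%, 10.2% and 9.36% of miR-26a-5p and 6.47%, 8.20% and 8.10% of miR-26b-5p. Since a U added after base 21 reads as encoded, the denominators at base 21 hold only the inserts that did not gain one.

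In RPM, untailed miR-26a-5p was at 955, 956 and 959. Its ratios to post-reproduction were 1.0 (0.964 to 1.04) in early arousal and 1.0 (0.967 to 1.04) in late torpor. U-tailed miR-26a-5p was at 538, 758 and 731 in the same order, with ratios of 1.41 (1.34 to 1.48) and 1.36 (1.3 to 1.42). As counted on this scale, the untailed form of miR-26a-5p was level within counting error while its U-tailed form was not. Only inserts with the adapter found are counted here. These were 89.4%, 93.2% and 94.4% of miR-26a-5p reads and 94.4%, 96.9% and 97.5% of miR-26b-5p reads. The levels of the forms were not corrected for this, and the lower share in post-reproduction raises every ratio to it. Untailed miR-26b-5p was at 1043, 1009 and 922, with ratios of 0.967 (0.932 to 1.0) and 0.884 (0.851 to 0.917), and its U-tailed form at 251, 519 and 434, with ratios of 2.07 (1.94 to 2.20) and 1.73 (1.62 to 1.84). With TMM factors the ratio of the untailed form was 0.849 (0.817 to 0.882) in early arousal and 1.12 (1.08 to 1.17) in late torpor for miR-26a-5p, and 0.820 (0.790 to 0.850) and 0.988 (0.952 to 1.02) for miR-26b-5p. The U-tailed ratios were then 1.19 and 1.52 for miR-26a-5p and 1.75 and 1.93 for miR-26b-5p, above 1 on both scales.

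**Figure D4:**
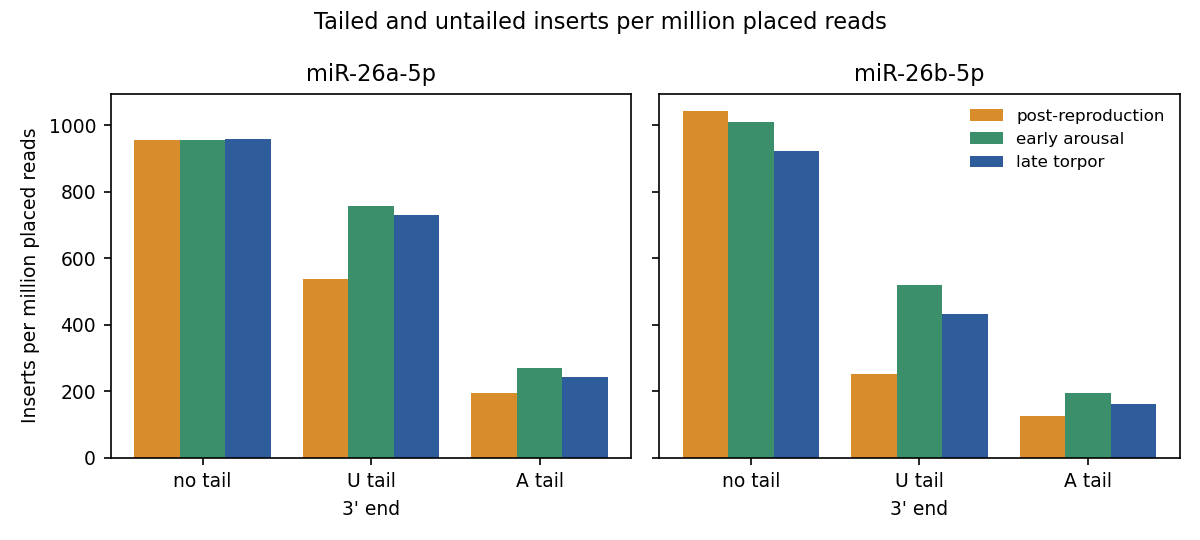
Inserts of miR-26a-5p (left) and miR-26b-5p (right) in RPM, relative to placed reads, by 3′ end (no tail, U tail, A tail) in the 3 libraries, 1 library per bar. The untailed bars of miR-26a-5p are at 955, 956 and 959. The U-tailed bars of miR-26b-5p go from 251 in post-reproduction to 519 in early arousal and 434 in late torpor. Bars count only inserts with the adapter found, and the share of reads with it was lowest in post-reproduction.

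The same measure was taken for the 55 features with at least 1000 inserts in each library. Of those with at least 10 U-tailed reads in both libraries compared, 18.4% (9 of 49) differed at least 1.5-fold in U-tail share in late torpor against post-reproduction, 22% (11 of 50) in early arousal against post-reproduction, and 8% (4 of 50) in early arousal against late torpor. Of the 2 members, miR-26b-5p was past 1.5-fold in both comparisons with post-reproduction and miR-26a-5p in none. U tails were more frequent in late torpor than in post-reproduction in 35 of 49 features and in early arousal in 41 of 50, so the members' direction was that of most features. The median log2 ratio was 0.23 and 0.16 in these comparisons and 0.01 in early arousal against late torpor. On miR-122-5p, the most abundant feature, U tails were on 2.14%, 3.81% and 2.93% of inserts.

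The members' U-tail shares were high among these 55 features. miR-26a-5p ranked 4th in post-reproduction and 3rd in the other libraries, and miR-26b-5p ranked 10th and then 7th. The median feature had U tails on 4.11%, 4.42% and 4.63% of inserts. In percentage points, the difference from post-reproduction was larger for miR-26b-5p than for every other feature compared, 1st of 49 in late torpor and 1st of 50 in early arousal. miR-26a-5p was 3rd and 2nd, and the median difference was 0.904 and 0.747 points. As a ratio the difference of miR-26b-5p was 8th in both comparisons, and that of miR-26a-5p 26th and 19th. A share that starts high moves by more points for the same ratio.

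**Figure D5:**
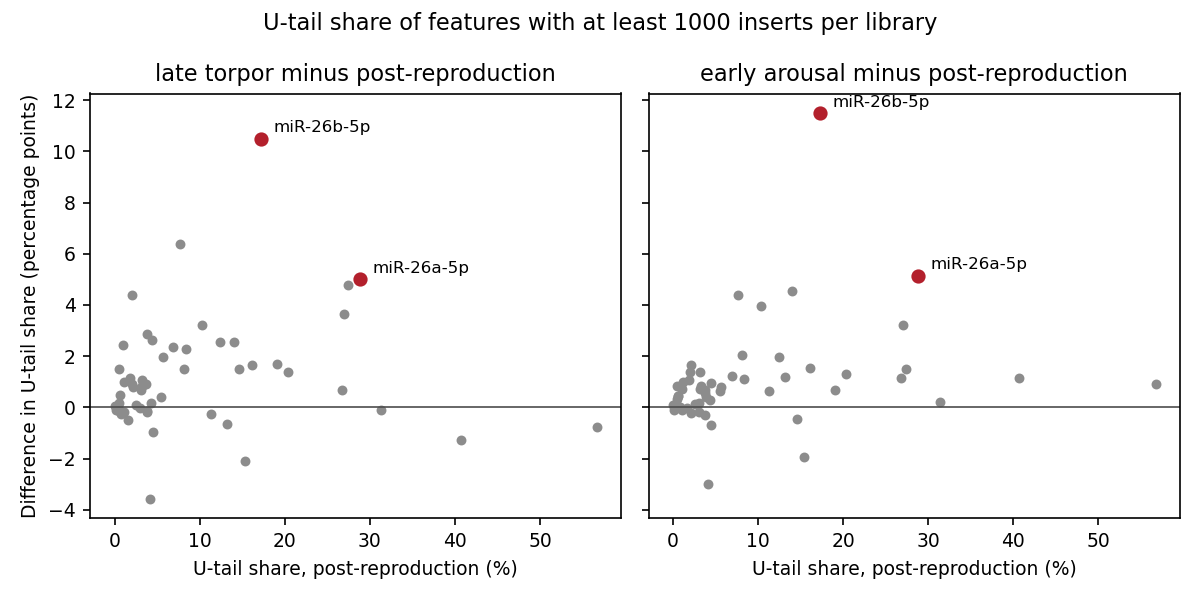
U-tail share in post-reproduction in percent against its difference in late torpor (left) and early arousal (right) in percentage points, for the 55 features with at least 1000 inserts per library, 1 point each, with the members in red. miR-26b-5p is the highest point in both panels, at 10.5 and 11.5 points, and miR-26a-5p lies at 5.0 and 5.14 points.

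For A tails the members lay somewhat above the middle of these features. Of the features with at least 10 A-tailed reads in both libraries, 8.51% (4 of 47) differed at least 1.5-fold in late torpor against post-reproduction, 14.6% (7 of 48) in early arousal against post-reproduction and 6.38% (3 of 47) in early arousal against late torpor, and neither member did. miR-26a-5p ranked 19th, 17th and 19th of 55 by A-tail share and miR-26b-5p 24th, 22nd and 24th, and the median share was 6.50%, 6.93% and 6.96%. A tails were more frequent than in post-reproduction in 32 of 47 features in late torpor and in 33 of 48 in early arousal. By difference in points from post-reproduction miR-26b-5p ranked 5th of 47 and 6th of 48, and miR-26a-5p 18th and 10th.

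The 5′ ends were uniform. Of the reads that start within a few bases of the miR-26a-5p start, 99.7%, 98.9% and 99.2% began at its first base. For miR-26b-5p these shares were 98.6%, 97.2% and 97.8%. The only other start with more than 30 reads in a library lay 3 bases further in, which removes part of the seed. It was found in 114, 293 and 211 reads of miR-26b-5p and 23, 114 and 82 of miR-26a-5p, and was highest in early arousal for both.

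A read of either member that carries the other's base at position 11 is counted with the wrong group, and its 3′ end can then be that of the other member. Reads that began as miR-26a-5p but ended as miR-26b-5p made up 1.81%, 2.80% and 1.74% of the miR-26a-5p group. The reverse was seen in 0.369%, 0.564% and 0.319% of the miR-26b-5p group. Some of the former count above as a 2 U tail after base 20, which occurred in 67, 118 and 60 inserts.

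The partner strands of both hairpins were almost not seen. At the miR-26a-5p locus 2, 2 and 1 reads lay on the same strand 32 to 38 bases away. At the miR-26b-5p locus there was none within 100 bases, which by a limit of 3 counts allows up to 0.534, 0.535 and 0.512 RPM. Reads that the genome used did not hold are not in the table, so nothing is shown here about the partner strands in the tissue.

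By a fixed rule, the features whose pattern over the 3 libraries was nearest to that of miR-26a-5p were sought among 67 with at least 1000 reads in each library. Likeness was the Euclidean distance between the pairs of log2 ratios to post-reproduction. The nearest feature began with tgaggtagtagattgtat, at a distance of 0.07, and had 551546, 608292 and 625562 reads. The next was miR-26b-5p at 0.11, and the third began with tagcaccatctgaaatcg, at 0.12, with 25938, 29020 and 27668 reads. Over 3 libraries such a distance is a description only.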

How the data were processed

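Liver small RNA of 3 stages was read from 1 table. Per the file headers, each entry of the deposited table joins a 30-base read, its read count and the stage, and the part placed on a scaffold is in capitals. The aligner is not given in the sources used here, nor are the build and read filters. Reads placed several times carry the same count at each position and were counted once. The 3′ adapter was found with at most 1 mismatch (none in the last 5 bases or fewer), for inserts of 18 to 26 nt. A member's tail is what follows the longest match to its locus, and for other features what follows the placed part. Groups 1 substitution from a group at least 20 times larger were merged for scaling. TMM-type factors (30% and 5% trimmed) were 0.982, 1.16 and 0.879 for post-reproduction, early arousal and late torpor. Intervals are exact Poisson, binomial or conditional binomial, and symmetric for differences in percentage points. They came from scipy 1.17.1 in Python 3.11.15, with numpy 2.4.6 and matplotlib 3.10.9. The code was tested on simulated data. Named were the members, their partner strands, groups with the same seed, the most abundant feature and the 3 features nearest in pattern. The members, the 1.5-fold limit and the rules were chosen with earlier results of these data known.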

Additional observations from a re-analysis of the deposited data

Results flagged for a closer look

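Signals outside the main counts were looked for in reads that share the seed or the locus with the members, and 7 were above the limit that a count of 0 allows. The libraries are given as post-reproduction, early arousal and late torpor. Substitutions are counted from 1 at the 5′ end of the miRNA, with its base first.

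A group that differs from miR-26a-5p by G14T had 308 reads in all, of which 47, 137 and 124 fell in the libraries, or 0.401%, 1.02% and 0.924% of the miR-26a-5p reads. The same change from miR-26b-5p, G14T, had 233 reads, with 46, 100 and 87, or 0.530%, 0.955% and 0.925%. Both shares were lower in post-reproduction than in the other libraries. The first was placed on scaffold_128594 and the second on scaffold_14574. A group that differs from miR-26a-5p by A18G had 95 reads, with 29, 38 and 28, and the one that differs from miR-26b-5p by A18G had 42 reads, with 15, 15 and 12. A group that differs from miR-26b-5p by C12A G14T had 31 reads, with 3, 12 and 16. Each of the 5 groups was under 1.1% of its member, and whether they are genes or misread members was not tested.

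Reads that start 3 bases into miR-26b-5p numbered 618 over all libraries, and those that start 3 bases into miR-26a-5p 219. They were 1.3%, 2.72% and 2.19% of the reads near the miR-26b-5p start, and 0.196%, 0.839% and 0.606% of those near the miR-26a-5p start.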

How the results depend on the processing

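Levels depended on the scaling. With placed reads the log2 ratios for late torpor and early arousal against post-reproduction and for early arousal against late torpor were 0.13, 0.20 and 0.064 for miR-26a-5p and 0.054, 0.27 and 0.22 for miR-26b-5p, so 3 of the 6 turned direction. With TMM factors over miRNA-like features, chosen after seeing the data, they were 0.38, 0.081 and -0.30 for miR-26a-5p, of which the second turned, and 0.30 and 0.16 for miR-26b-5p against post-reproduction. With adapter-bearing inserts only, miR-26a-5p was at 0.37 and 0.019 (interval -0.018 to 0.057) against post-reproduction and miR-26b-5p at 0.26 in late torpor. The cause was not tested. The other 28 recomputed level ratios moved by less than counting error. For early arousal against post-reproduction, the interval of miR-26a-5p came to include equal levels with 1 substitution accepted, at -0.030 (-0.065 to 0.0057). That of miR-26b-5p came to leave them out with adapter-bearing inserts only, at 0.070 (0.028 to 0.11). With no adapter mismatch the U-tail ratio of miR-26a-5p to post-reproduction was 1.11 in late torpor and 1.11 in early arousal. The ratio of miR-26b-5p ranged from 1.54 to 1.62 in late torpor and from 1.60 to 1.71 in early arousal over 6 alternatives, and the other 34 U-tail and all 36 A-tail ratios moved by less than counting error. In some of these the interval came to include or to leave out 1. With the whole mature sequence kept these were the A-tail ratios of miR-26a-5p for late torpor against post-reproduction, 1.13 (1.03 to 1.24), and for early arousal against late torpor, 1.08 (0.997 to 1.18), and the U-tail ratio of miR-26b-5p for early arousal against late torpor, 1.07 (1.01 to 1.12). With up to 2 adapter mismatches, chosen after seeing the data, it was the A-tail ratio of miR-26a-5p for early arousal against late torpor, 1.07 (0.9996 to 1.15). Among miRNA-like features only, the share past 1.5-fold was 19.0%, 23.8% and 17.5%, a smaller set of deeper features by construction. A comparison over miRNAs of a reference table was not run. No paired analysis was possible because each stage has 1 library. Depth limits groups of under 100 reads, where counting error alone is wide.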
